A study of Mus musculus with 4 samples.

Results

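In 4 mouse pancreatic cancer cell lines, 9 genes of pancreatic acinar cells were followed: Cpa1, Cpb1, Cela1, Cela2a, Ctrb1, Ctrl, Pnlip and Cel, which encode digestive enzymes, and Rbpjl, which encodes a transcription factor of acinar cells. They were matched by gene symbol to the clusters of the array, and 8 of the 9 were measured, each by 1 cluster, among 19938 genes in all. Pnlip, the gene of pancreatic triglyceride lipase, had no cluster with 1 symbol and was not analysed here beyond its promoter. TPAC cells (lines K459 and TCPA18654) were compared with TPC cells (lines TPC18645 and TPC20223). Both genotypes carry the TGF-α transgene Ela-TGFa, the Cre allele Ptg1a+/CRE and floxed p53 on both alleles (Trp53fl/fl), and TPAC cells carry p65fl/fl, the floxed Rela gene, in addition. The study is about the invasion of nerves by tumor cells of such mice. The cells were grown untreated from digested pancreatic tumors, and total RNA of each line was hybridised to 1 Affymetrix Mouse Gene 1.0 ST array. The deposited values are log2 signals made by RMA, a method that corrects background, brings the arrays to a common distribution and combines the probes of a transcript cluster. A log2 difference of 1 is a doubling of the signal. Ages and sexes of the mice are not given in the sources used here, nor is the mouse behind each line, so p-values measure the spread from line to line only.

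Acinar cells make up most of the exocrine pancreas and secrete digestive enzymes, many of them as inactive zymogens that are switched on in the gut. Their enzyme genes are driven by the PTF1 complex, in which the acinar factor PTF1A pairs with a widely expressed E-protein (encoded by Tcf3 or Tcf12) and with RBPJL, which takes the place of RBPJ in mature acinar cells. When acinar cells turn into duct-like cells, a change that TGF-α drives in mouse pancreas, these genes are turned down and ductal keratins appear. The alleles of these lines depend on the same circuit, because the transgene is under the elastase 1 promoter and the Cre is driven by the Ptf1a locus (the labels spell it Ptg1a).

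The array medians lay between 7.19 and 7.26 in all 4 lines, which follows from the common distribution that RMA sets and does not show how scale differed before it. The ductal keratin gene Krt19 had a signal of 12.65 in K459 and 11.79 in TCPA18654, against 11.74 in TPC18645 and 6.08 in TPC20223, the line that stood apart. The lines TCPA18654 and TPC18645, although of different genotype, differed by a log2 signal of 1 or more in 54 genes, against 772 between both TPAC lines and 2243 between both TPC lines. Rela had signals of 10.82 in K459 and 11.10 in TCPA18654, against 11.12 in TPC18645 and 10.70 in TPC20223. Its cluster combines probes along the transcript, so it does not check the deletion. With 2 lines against 2, an exact two-sided permutation test of a single gene has 6 assignments and cannot go below p = 0.333.

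Promoter windows of the members, 250 bases before to 50 bases after the annotated start, were taken from RefSeq (GRCm38.p6). All 9 members had a window, and 5 are printed: Cela1, the gene after which the promoter of the transgene is named; Ctrb1, Cpa1 and Cpb1, whose signals stood highest in one line; and Rbpjl, whose signal hardly varied. Each runs 5′ to 3′ along the gene's strand, and capitals mark the E-box (CANNTG), the TC box (TTTCCC or its reverse complement GGGAAA) and TATAAA.
Cela1 promoter (chr15:100687871-100688170, minus strand): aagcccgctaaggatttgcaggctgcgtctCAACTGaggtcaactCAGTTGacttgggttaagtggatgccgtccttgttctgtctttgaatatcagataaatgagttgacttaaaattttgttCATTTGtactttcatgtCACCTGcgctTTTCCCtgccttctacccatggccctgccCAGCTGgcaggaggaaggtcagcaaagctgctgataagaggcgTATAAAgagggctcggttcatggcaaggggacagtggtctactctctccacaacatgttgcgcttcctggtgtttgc
Ctrb1 promoter (chr8:111690961-111691260, minus strand): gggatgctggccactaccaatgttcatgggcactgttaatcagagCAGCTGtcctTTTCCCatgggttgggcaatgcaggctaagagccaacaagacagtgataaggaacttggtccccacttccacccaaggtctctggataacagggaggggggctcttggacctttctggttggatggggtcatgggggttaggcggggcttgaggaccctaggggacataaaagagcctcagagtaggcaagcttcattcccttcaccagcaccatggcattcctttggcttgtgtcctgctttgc
Cpa1 promoter (chr6:30638968-30639267, plus strand): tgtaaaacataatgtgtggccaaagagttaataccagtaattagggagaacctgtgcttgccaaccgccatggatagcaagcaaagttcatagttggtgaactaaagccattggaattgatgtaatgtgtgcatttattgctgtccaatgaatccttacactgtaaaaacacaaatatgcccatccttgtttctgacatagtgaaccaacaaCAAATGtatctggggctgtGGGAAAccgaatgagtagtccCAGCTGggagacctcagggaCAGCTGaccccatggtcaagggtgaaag
Cpb1 promoter (chr3:20275684-20275983, minus strand): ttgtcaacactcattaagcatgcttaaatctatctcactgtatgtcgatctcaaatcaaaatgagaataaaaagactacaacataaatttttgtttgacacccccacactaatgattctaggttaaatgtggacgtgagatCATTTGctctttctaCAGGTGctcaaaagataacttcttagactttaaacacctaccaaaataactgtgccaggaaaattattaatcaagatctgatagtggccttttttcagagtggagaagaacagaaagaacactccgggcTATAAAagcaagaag
Rbpjl promoter (chr2:164402944-164403243, plus strand): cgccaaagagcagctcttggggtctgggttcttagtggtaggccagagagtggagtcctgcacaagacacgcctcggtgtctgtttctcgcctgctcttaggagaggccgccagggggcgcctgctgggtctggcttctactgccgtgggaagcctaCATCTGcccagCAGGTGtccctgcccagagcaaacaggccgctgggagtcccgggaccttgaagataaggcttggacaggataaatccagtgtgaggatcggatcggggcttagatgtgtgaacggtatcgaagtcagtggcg

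The PTF1 complex binds an E-box next to a TC box, and both were looked for on both strands of each window. An E-box was found in 8 of the 9 members, all except Pnlip, but also in 72.3% of the 32851 windows of all genes. The TC box TTTCCC occurred in 5 members (Cela1, Ctrb1, Cpa1, Cel and Cela2a) and in 25.2% of all windows, and its other form TTCCCA in 7 members and in 25.6% of all windows. The 2 TC box forms overlap wherever TTTCCC is followed by A. The E-box form CACCTG was present in 6 members and 20.2% of all windows, and CAGCTG in 4 members and 16.3%. An E-box within 25 bases of a TC box was found in 4 members (Cela1, Ctrb1, Cpa1 and Cel) and in 5.63% of all windows. In Cela1 and Ctrb1 an E-box lay 4 bases before TTTCCC, reading along the strand that holds TTTCCC. On either strand, 0.094% of all windows held this arrangement, which was searched for after it had been seen in both. TATAAA lay 27 bases before the start in Cela1 and 30 bases before it in Pnlip, whereas in Cpb1 it lay 36 bases after the annotated start, and 13.6% of all windows held it. These matches describe the letters only.

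**Figure D1:**
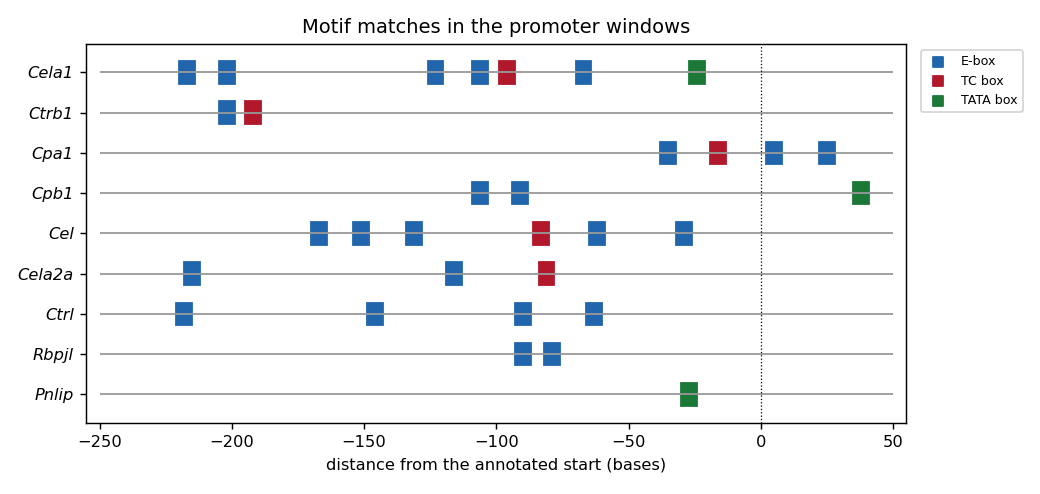
Motif matches in the promoter windows of the 9 members, by distance in bases from the annotated start (dotted line); boxes are E-boxes (blue), TC boxes TTTCCC (red) and TATAAA (green). Cela1 and Ctrb1 each have an E-box 4 bases before a TC box, and Pnlip has neither motif.

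The pancreatic carboxypeptidases, which cut single amino acids from the end of proteins, had low signals in all lines and their highest in TPC18645. Cpa1 (carboxypeptidase A1) had a log2 signal of 6.25 in K459 and 6.64 in TCPA18654, against 7.50 in TPC18645 and 6.78 in TPC20223. Cpb1 (carboxypeptidase B1) had 5.49 in K459 and 5.79 in TCPA18654, against 6.80 in TPC18645 and 5.93 in TPC20223. For both genes the TPAC lines lay below both TPC lines, and TPC18645 stood further above the next line, TPC20223, than the other 3 lines spread among themselves. Cpa1 averaged 6.45 ± 0.28 in TPAC cells and 7.14 ± 0.51 in TPC cells (SD, n = 2 each), a difference of -0.70 on the log2 scale (SE 0.32) that limma did not call (adjusted p = 0.989). Cpb1 averaged 5.64 ± 0.21 in TPAC cells and 6.37 ± 0.62 in TPC cells (SD, n = 2 each), a difference of -0.73 with a standard error of 0.36 (limma, adjusted p = 0.989). Neither passed the test. In bulk RNA, fewer cells with acinar transcripts and less RNA per cell cannot be told apart.

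Chymotrypsin genes encode endopeptidases that cut after aromatic residues. Ctrb1 (chymotrypsinogen B1) had a log2 signal of 6.92 in K459 and 7.03 in TCPA18654, against 8.11 in TPC18645 and 7.05 in TPC20223. As for the carboxypeptidases, TPC18645 alone stood above the other 3 lines, which lay between 6.92 and 7.05. Its mean was 6.98 ± 0.08 in TPAC cells and 7.58 ± 0.75 in TPC cells (SD, n = 2 each), a difference of -0.61 with a standard error of 0.41 (limma, adjusted p = 0.989). The chymotrypsin-like gene Ctrl had 6.73 in K459 and 6.59 in TCPA18654, against 7.01 in TPC18645 and 6.54 in TPC20223. TPC18645 was again the highest, but here the genotypes overlapped, with a difference of -0.12 and a standard error of 0.22.

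The elastase genes among the members, Cela1 and Cela2a, had lower signals in both TPAC lines than in both TPC lines. Cela1 (elastase 1) had a log2 signal of 7.37 in K459 and 7.44 in TCPA18654, against 7.75 in TPC18645 and 7.77 in TPC20223. Lines of 1 genotype lay within 0.07 of each other, and the range over the 4 lines was 0.40. The difference was -0.36 with a standard error of 0.12, the smallest unadjusted p of the members (0.0488), and it did not pass after adjustment over all genes (limma, adjusted p = 0.989). Cela2a (elastase 2A) had 6.99 in K459 and 7.28 in TCPA18654, against 7.52 in TPC18645 and 7.40 in TPC20223, a difference of -0.33 with a standard error of 0.17. Its groups did not overlap either, although the gap between the nearest lines, TCPA18654 and TPC20223, was smaller than the gap between the 2 TPAC lines.

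Cel is the gene of bile salt-stimulated lipase, which splits cholesterol esters and other lipids. It had a log2 signal of 5.86 in K459 and 5.94 in TCPA18654, against 6.32 in TPC18645 and 5.91 in TPC20223, so that TPC18645 was again the highest. The groups overlapped, and the difference was -0.22 with a standard error of 0.19. Rbpjl, which encodes the acinar subunit of PTF1, was nearly flat. Its signal was 6.77 in K459 and 6.94 in TCPA18654, against 6.86 in TPC18645 and 6.98 in TPC20223, and its range over the 4 lines was 0.21, the smallest of the 8 members. The difference between the genotypes was -0.07 with a standard error of 0.14. Each line had 1 array, so the spread within a line is not known and no order of single lines has a test.

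**Figure D2:**
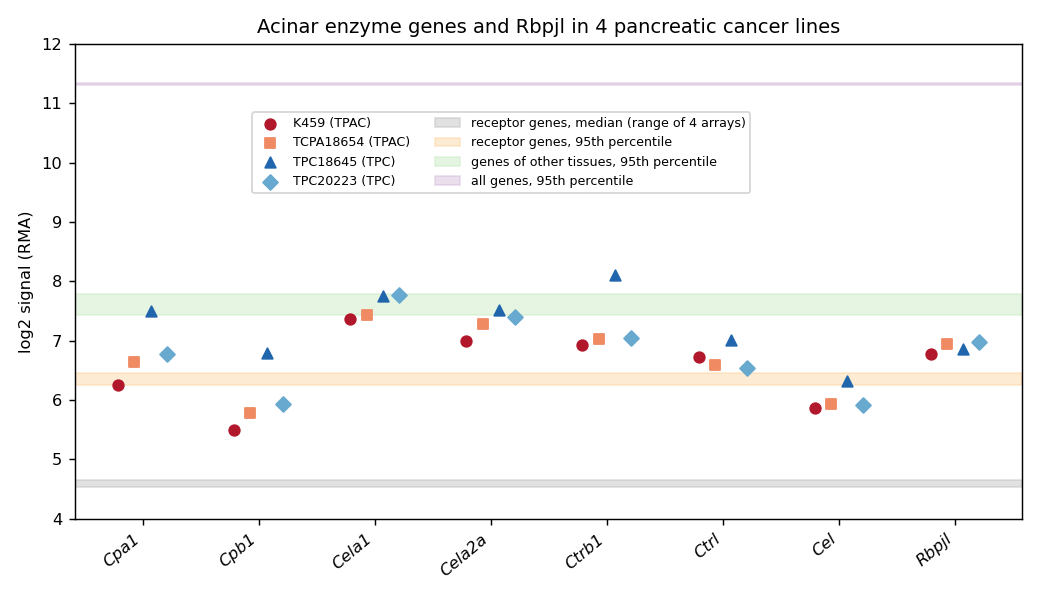
Log2 signal (RMA) of the 8 measured members in each line; points are single arrays, with TPAC lines (K459, TCPA18654) in red and orange and TPC lines (TPC18645, TPC20223) in blue. Bands give the range over the 4 arrays of the median and 95th percentile of chemosensory receptor genes, the 95th percentile of genes of other tissues (liver genes left out) and the 95th percentile of all genes; every member lies far below the last of these.

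To see how close to background the enzyme genes were, they were set against 1203 odorant, vomeronasal and trace amine receptor genes, which belong to sensory neurons and stand in for transcripts that cultured tumor cells lack. The deposited values carry no detection call, and probes differ in affinity, so a position against the probes of other genes is approximate. The median receptor signal was 4.56 in K459 and 4.65 in TCPA18654, against 4.63 in TPC18645 and 4.53 in TPC20223. The 95th percentile was 6.29 in K459 and 6.46 in TCPA18654, against 6.34 in TPC18645 and 6.25 in TPC20223, and it served as the limit of background. Above it were 5 of the 8 members in K459 (71.1% of all genes), 6 in TCPA18654 (68.8%), 7 in TPC18645 (69.8%) and 6 in TPC20223 (72.2%). The members' share was thus near that of all genes in each line. The same limit was passed by 23 of 46 genes of other tissues (liver included) in K459 and 21 in TCPA18654. In each TPC line it was passed by 22. Passing it is therefore no sign by itself that a gene is expressed.

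The margin differed between members and lines. Cel lay below it in all 4 lines, and Cpb1 exceeded it only in TPC18645, by 0.46. Cpa1 was 0.04 below it in K459 and 0.18 above it in TCPA18654, against 1.16 above it in TPC18645 and 0.53 above it in TPC20223. Cela1 cleared it by the widest margin in every line except TPC18645, namely by 1.08 in K459 and 0.98 in TCPA18654, against 1.41 in TPC18645 and 1.52 in TPC20223. In TPC18645 Ctrb1 was further above it, by 1.77. Cela2a exceeded it by 0.70 in K459 and 0.82 in TCPA18654, against 1.18 in TPC18645 and 1.15 in TPC20223. Ctrb1 exceeded it by 0.63 in K459, 0.57 in TCPA18654 and 0.80 in TPC20223. Ctrl and Rbpjl exceeded it in every line, Ctrl by 0.13 to 0.67 and Rbpjl by 0.48 to 0.73.

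A stricter limit left few members. Above the 99th percentile of the receptor genes stood Cela1 alone in K459 (57.0% of all genes) and in TCPA18654 (52.9%), against Cpa1, Cela1, Cela2a and Ctrb1 in TPC18645 (56.9%) and Cela1 and Cela2a in TPC20223 (56.8%). A second reference was 41 genes of other tissues (eye lens, retina, muscle, testis, skin, brain and others). Their 95th percentile was 7.60 in K459 and 7.78 in TCPA18654, against 7.72 in TPC18645 and 7.43 in TPC20223. No member exceeded it in K459 (50.5% of all genes did) or in TCPA18654 (47.0%), whereas Cela1 and Ctrb1 did so in TPC18645 (48.4%) and Cela1 in TPC20223 (52.7%). Liver genes had been left out of this list after their values were seen, because Alb (albumin) had signals of 7.68 in K459 and 12.77 in TCPA18654, against 12.47 in TPC18645 and 5.90 in TPC20223. Over all lines, the members' signals lay between the 16.1th percentile of all genes (Cpb1 in K459) and the 55.9th (Ctrb1 in TPC18645), whereas 7 widely used genes such as Actb and Rps6 had signals of 11.97 to 14.27. In these pancreatic tumor cells, whether an acinar marker counted as above background thus depended on the marker, the line and the limit.

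All 8 members had a lower mean in TPAC than in TPC cells, as did 47.2% of all genes. The median log2 difference of the members was -0.34, beside 0.015 over all genes. In 5 members (Cpa1, Cpb1, Cela1, Cela2a and Ctrb1) both TPAC lines were lower than both TPC lines, which held for 13.3% of all genes. With a threshold of 0.05 on limma's adjusted p and of 0.58 on the log2 difference, no member was called, and neither was any other gene (0.0% called). Without adjustment, 1 member (Cela1) and 0.782% of all genes (156 genes) had a p under 0.05. Since 5 of the 8 members have a mean signal at or below the 40th percentile of all genes (6.96), their differences are inexact in size.

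The size of these differences depended on TPC18645. Without it the members' median difference was -0.20, and the difference of Ctrb1 was -0.08, that of Cpb1 -0.29, that of Cpa1 -0.34 and that of Cel -0.01, while Ctrl turned to 0.12. Cela1 stood at -0.37 and Cela2a at -0.27. Without TPC20223, the differences of Cpa1, Cpb1 and Ctrb1 were -1.06, -1.16 and -1.14, and that of Cel was -0.42. Cela2a also depended on K459, with -0.18 without it, whereas Cela1 stayed between -0.39 and -0.32 whichever line was left out. None passed the test with any line left out.

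TPC18645 was the highest of the 4 lines in 6 of the 8 members, all but Cela1 and Rbpjl, and in 25.2% of all genes. The same line was the highest in 436 of the 1203 receptor genes and in 15 of the 46 genes of other tissues (liver included), with ties with TPC20223 counted. It exceeded the next line by 0.58 or more in Cpa1, Cpb1 and Ctrb1, that is in 3 of 8 members, and in 62 of all genes (0.311%). K459 was the lowest line in 7 of 8 members and in 24.2% of all genes. The other TPC line did not share the high signals: TPC18645 minus TPC20223 was 0.72 for Cpa1, 0.87 for Cpb1 and 1.06 for Ctrb1, with 11.6% of all genes higher by 0.58 or more. For Cela1 the same difference was -0.02 and for Rbpjl -0.12. Between both TPAC lines, K459 minus TCPA18654 ranged from -0.39 for Cpa1 to 0.14 for Ctrl, and no member reached 0.58 in size, as 10.0% of all genes did.

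The enzyme genes were next compared between TCPA18654 and TPC18645, the pair in which the fewest genes differed. TCPA18654 was lower by 0.58 or more in 192 of 19938 genes (0.963%) and by 1 or more in 30 (0.15%), and higher by 1 or more in 24 (0.12%). Among the members, TCPA18654 minus TPC18645 was -1.08 for Ctrb1, -1.01 for Cpb1 and -0.86 for Cpa1, so that their signals were 2.11, 2.01 and 1.82 times as high in TPC18645. The other enzymes differed by less, at -0.42 for Ctrl, -0.38 for Cel, -0.31 for Cela1 and -0.24 for Cela2a, and Rbpjl by 0.08. In all, 7 of 8 members were lower in TCPA18654 (53.6% of all genes were), with a median of -0.40. The receptor genes, of which most lay below the members, had a median difference of 0.01 in this pair. Against TPC18645 their median difference was -0.06 in K459 and -0.08 in TPC20223. With 1 array each there is no test of TCPA18654 against TPC18645, which compares 2 lines and not the genotypes.

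**Figure D3:**
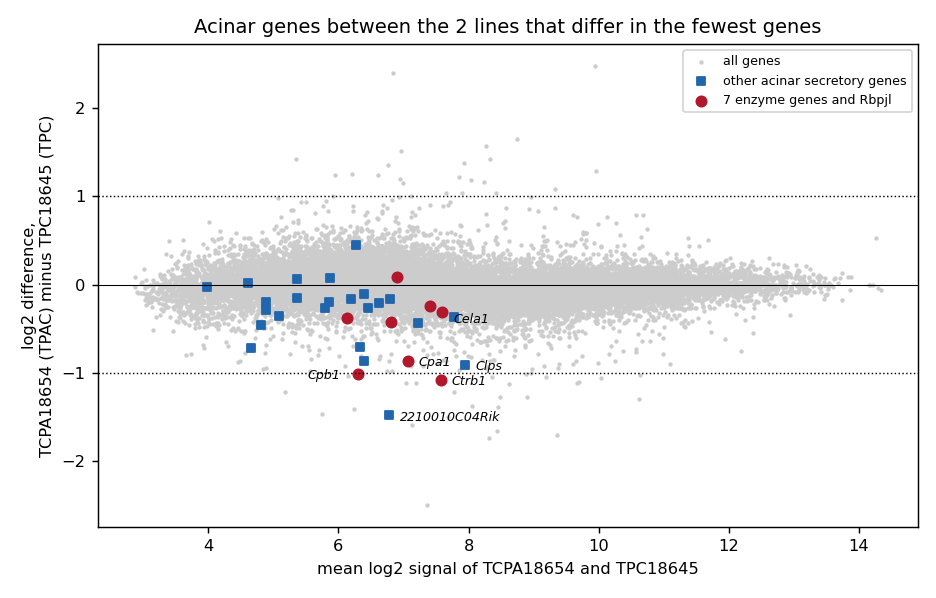
Log2 difference TCPA18654 (TPAC) minus TPC18645 (TPC) against the mean log2 signal of both lines, for all 19938 genes (grey), the 8 measured members (red) and 24 other acinar secretory genes (blue squares); dotted lines mark a difference of 1 in size. Ctrb1, Cpb1 and 2210010C04Rik lie below -1, and most other acinar genes lie below 0.

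Other secretory products of acinar cells were mostly lower in TCPA18654 as well. Of 24 measured genes of a list of 30 (trypsins, further lipases, colipase, RNase, Reg proteins and others), 20 were lower in TCPA18654 than in TPC18645 (53.6% of all genes), with a median difference of -0.24. TPC18645 was the highest of the 4 lines in 17 of the 24 (25.2% of all genes). Most of the list lay below the 95th percentile of the receptor genes, with 5 of 24 above it in K459 and 6 in TCPA18654, against 10 in TPC18645 and 9 in TPC20223. Of all genes, 68.8% to 72.2% were above it. Of the 24, 5 were lower in TCPA18654 by 0.58 or more and none was higher by as much. Among them, the trypsinogen family gene 2210010C04Rik had signals of 5.71 in K459 and 6.04 in TCPA18654, against 7.52 in TPC18645 and 6.23 in TPC20223. Clps, the gene of colipase, the cofactor of pancreatic lipase, had 7.75 in K459 and 7.49 in TCPA18654, against 8.40 in TPC18645 and 7.62 in TPC20223. TPC18645 was the only line that stood out in both genes. The pancreatic RNase gene Rnase1 (-0.87), the trypsin gene Try4 (-0.72) and Reg1 (-0.71) completed the 5, and Try4, with signals of 4.30 to 5.02, was below that limit in every line. Genes of the trypsin and Reg families resemble each other in sequence, and whether their clusters share probes was not tested.

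Between the genotypes, 19 of these 24 genes were lower in TPAC cells (47.2% of all genes), 5 were higher, and the median difference was -0.16. In 7 of them both TPAC lines were lower than both TPC lines (13.3% of all genes), and in 1, Dnase1, both were higher (13.7% of all genes). The largest differences were those of 2210010C04Rik (-1.0) and of Reg2 (-0.66), with signals of 4.35 in K459 and 4.91 in TCPA18654, against 5.27 in TPC18645 and 5.31 in TPC20223 for Reg2. Reg2 was below the receptor limit in all 4 lines and 2210010C04Rik in all but TPC18645, so that both sizes are inexact. Upwards, Reg3g (0.23) and Dnase1 (0.12) led. The phospholipase gene Pla2g1b, one of the brightest, had 7.33 in K459 and 7.59 in TCPA18654, against 7.96 in TPC18645 and 6.92 in TPC20223, so that TPC18645 was highest and TPC20223 lowest. Cela3b (elastase 3B) had 6.81 in K459 and 7.0 in TCPA18654, against 7.44 in TPC18645 and 6.80 in TPC20223. Ctrc (chymotrypsin C) ranged only from 6.71 to 6.87. No gene of the list was called by limma (smallest unadjusted p = 0.0541 for Reg2).

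For genes of the secretory granule and its machinery the picture was mixed, and no test set them against the enzymes. Of 14 measured genes, 8 were higher and 6 lower in TPAC cells, with a median difference of 0.04, and the median of TCPA18654 minus TPC18645 was -0.02. TPC18645 was nevertheless the highest line in 7 of the 14 (25.2% of all genes), with a median of -0.18 for K459 minus TPC18645 and of -0.20 for TPC20223 minus TPC18645. The gene lower in TCPA18654 by 0.58 or more was Zg16, which encodes a zymogen granule membrane protein, with 5.54 in K459 and 5.64 in TCPA18654, against 6.56 in TPC18645 and 5.64 in TPC20223. It shared the shape of Ctrb1, but only in TPC18645 did it exceed the receptor limit, by 0.22. Gp2, the gene of the major granule membrane glycoprotein, had 5.53 in K459 and 5.22 in TCPA18654, against 5.63 in TPC18645 and 5.62 in TPC20223. Gp2 was below that limit in every line. The brightest genes of the list, Gatm (creatine synthesis) and Rab3d (granule exocytosis), are also used by other cells. Gatm had 9.41 in K459 and 11.74 in TCPA18654, against 11.61 in TPC18645 and 8.89 in TPC20223, and Rab3d had 9.47 in both TPAC lines, against 9.67 in TPC18645 and 7.98 in TPC20223. Syncollin (Sycn) and the aquaporin Aqp12, which are more restricted to acinar cells, ranged from 7.24 to 7.46 and from 7.10 to 7.36. Of the 46 measured genes of the members and both lists, 9 were lower in TCPA18654 than in TPC18645 by 0.58 or more, and of the 62 genes in which TPC18645 stood alone by this margin 6 were among these 46.

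**Figure D4:**
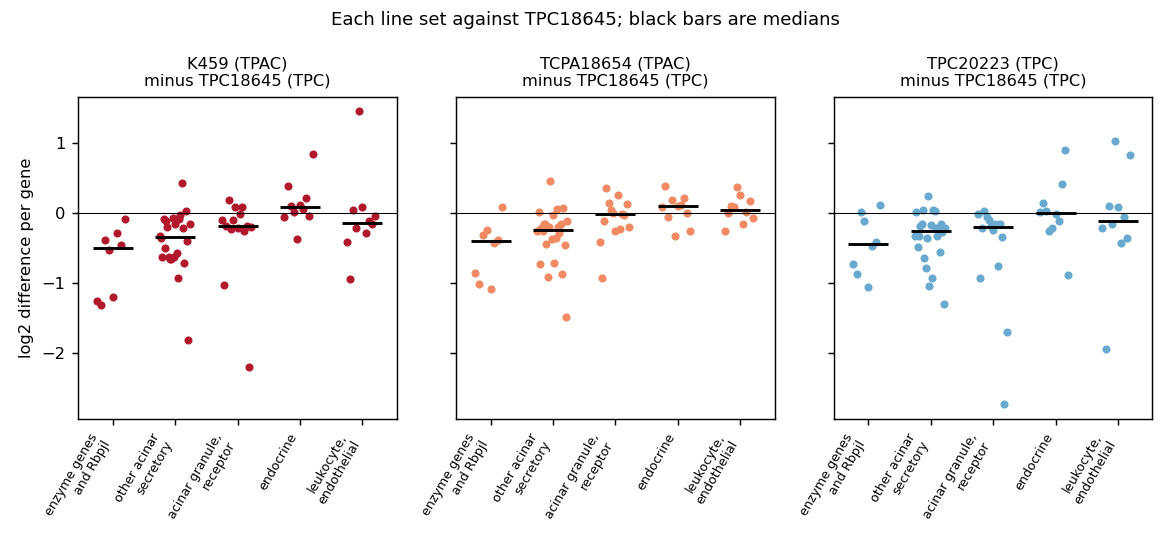
Log2 difference of each gene between K459, TCPA18654 or TPC20223 and the line TPC18645, by gene list; points are genes and black bars medians. The medians of the 8 members are -0.50, -0.40 and -0.44 in the 3 panels, and those of the 24 other secretory genes -0.35, -0.24 and -0.25. The granule list has -0.18, -0.02 and -0.20, and the leukocyte and endothelial list -0.135, 0.05 and -0.11. Endocrine markers lie at 0.08, 0.10 and 0.00.

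Of the PTF1 subunits, Ptf1a stayed near background, and the widely expressed partners lay well above it. Ptf1a, the acinar bHLH factor, had a log2 signal of 6.13 in K459 and 5.95 in TCPA18654, against 6.06 in TPC18645 and 5.88 in TPC20223, below the receptor limit in every line. Like Rbpjl it did not follow the enzymes upwards in TPC18645. Rbpj, the partner that most cells use, had 11.35 in K459 and 11.25 in TCPA18654, against 11.06 in TPC18645 and 11.79 in TPC20223, and Tcf12 and Tcf3 lay between 10.06 and 11.13. Rbpj was lowest in TPC18645 and highest in TPC20223, and no link between these subunits and the enzyme signals was tested.

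Other factors of acinar cells varied mainly with TPC20223. Of 13 measured factors, Ptf1a, Rbpj, Tcf12 and Tcf3 included, 9 were higher and 4 lower in TPAC cells, with a median difference of 0.16 and none called. Nr5a2, a nuclear receptor that works with PTF1, had 6.40 in K459 and 6.39 in TCPA18654, against 6.25 in TPC18645 and 7.89 in TPC20223. Bhlha15 (Mist1), which shapes the secretory apparatus, had 6.76 in K459 and 6.78 in TCPA18654, against 6.61 in TPC18645 and 6.48 in TPC20223. Neither was raised in TPC18645, where Nr5a2 was 0.09 below the receptor limit and Bhlha15 only 0.27 above it. Xbp1, a factor of the secretory pathway, ranged from 11.51 to 11.90. Gata6, which maintains acinar identity, had 10.79 in K459 and 10.91 in TCPA18654, against 10.78 in TPC18645 and 9.64 in TPC20223. The largest differences in this list were those of Hnf4a (2.22) and Pdx1 (1.83), higher in TPAC cells, and of Foxp2 (-1.22) and Nr5a2 (-0.68), lower in TPAC cells. For 3 of these 4 genes TPC20223 was the line apart, and Pdx1, a factor of pancreatic progenitors and beta cells, was also high in K459, with 9.85 in K459 and 7.46 in TCPA18654, against 7.76 in TPC18645 and 5.90 in TPC20223.

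**Figure D5:**
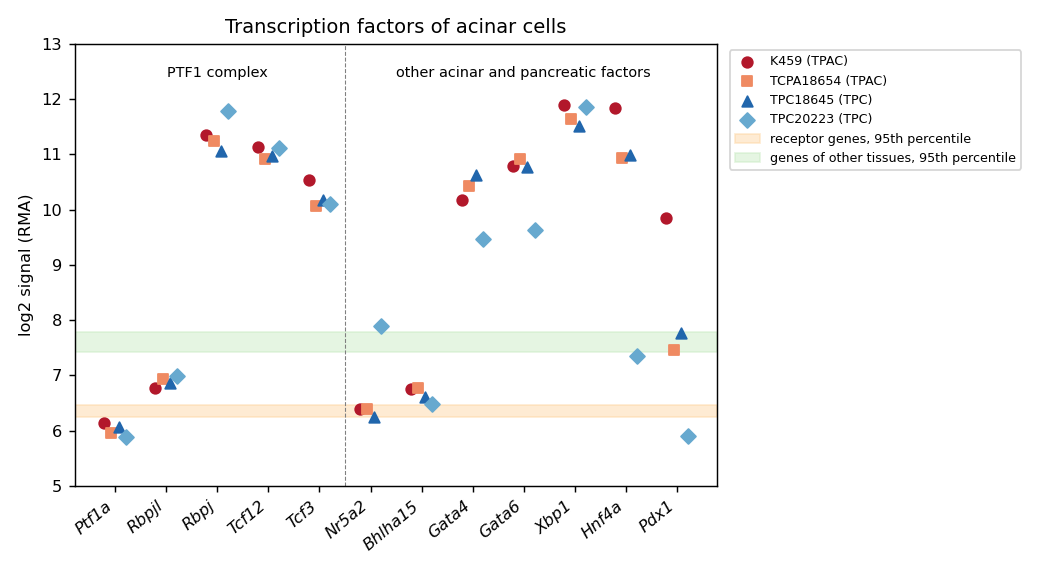
Log2 signal (RMA) of PTF1 complex genes (left of the dashed line) and other acinar or pancreatic factors in each line; points are single arrays, TPAC lines in red and orange and TPC lines in blue, and bands the range over 4 arrays of the 95th percentile of receptor genes and of genes of other tissues. Ptf1a lies below the receptor band (5.88 to 6.13), while Rbpj, Tcf12 and Tcf3 lie above 10.

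Markers of other pancreatic cells were read beside the enzymes. All 16 measured ductal and metaplasia markers had a higher mean in TPAC cells, as did 10520 of all 19938 genes, with a median difference of 1.45 in the markers. Krt8 had 13.72 in K459 and 13.44 in TCPA18654, against 13.33 in TPC18645 and 7.87 in TPC20223, so that in this gene TPC20223 was the line apart. TPC20223 was the lowest line in 12 of the 16 (38.8% of all genes). K459 was the highest line in 15 of the 16 (22.6% of all genes), and by 0.58 or more in 9 (2.35%). Not all followed Krt8: Epcam had 9.77 in K459 and 7.37 in TCPA18654, against 6.82 in TPC18645 and 6.43 in TPC20223, with K459 as the line apart. In TCPA18654 and TPC18645, the pair in which the enzymes differed, the ductal markers had a median difference of 0.20 and 1 of 16 reached 0.58. Islet hormone genes had low signals too. Sst ranged from 7.19 to 7.34, Ppy from 7.16 to 7.59 and Gcg from 5.48 to 5.87, and none stood out in TPC18645. The leukocyte and endothelial list of 10 genes had a median difference of 0.05 and the fibroblast list of 12 genes one of -0.09 between TCPA18654 and TPC18645, with no gene of either at 0.58. Genes of connective tissue outside this list were nevertheless lower in TCPA18654, as seen among the 192 genes lower by 0.58 or more and chosen after their values were seen. Ogn, a matrix proteoglycan gene, had 9.31 in K459 and 6.12 in TCPA18654, against 8.61 in TPC18645 and 11.56 in TPC20223, the largest decrease of all genes in this pair (-2.49). The matrix protease gene Mmp2 (-1.66), Sfrp2 (-1.29), Aspn (-1.21), Fbln5 (-1.13), Serpinf1 (-0.85) and Postn (-0.84) were lower as well. In Ogn, unlike the enzymes, the highest line was TPC20223 and K459 lay above TPC18645. The fibroblast list was lower in TPAC cells in 10 of 12 genes (47.2% of all genes). Its Acta2, the gene of smooth muscle actin, had 11.66 in K459 and 12.09 in TCPA18654, against 12.64 in TPC18645 and 13.24 in TPC20223. The part of any other cell type in the enzyme signals was not tested. Tgfa had 9.07 in K459 and 8.90 in TCPA18654, against 8.94 in TPC18645 and 7.88 in TPC20223, and whether its cluster also reads the transgene was not tested.

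The mean profile of the members, centred on each gene's own mean, was -0.27 in K459 and -0.11 in TCPA18654, against 0.41 in TPC18645 and -0.03 in TPC20223. Among 11394 other genes with enough range over the lines, the 5 nearest to it by root mean squared distance over these 4 values were Rpl14 (0.029), Lrrc9 (0.035), Lce1a2 (0.043), Wdr19 (0.043) and Oas2 (0.044). Rpl14, a ribosomal protein gene, had 8.93 in K459 and 9.07 in TCPA18654, against 9.60 in TPC18645 and 9.10 in TPC20223. Of these 5 genes, none was on the acinar lists. The members themselves followed the mean profile unequally: the range over the lines was 1.31 for Cpb1, 1.25 for Cpa1 and 1.19 for Ctrb1, but between 0.40 and 0.53 for Cela1, Cel, Ctrl and Cela2a.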

How the data were processed

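The authors deposited log2 signals of 28941 transcript clusters on 4 arrays, made by RMA in Affymetrix Expression Console 1.4 per the submitters' processing notes. Filters, array batches and the genome build are not given in the sources used here. RMA brings the arrays to 1 distribution, so differences in total RNA are lost, and the number of arrays limits precision. Clusters with 1 symbol in the platform annotation (21789) were used, and the brightest stood for its gene (19938 genes, unfiltered). TPAC and TPC cells were compared with limma 3.58.1 in R 4.3.3 (lmFit and eBayes, two-sided) and Benjamini-Hochberg adjustment over the 19938 genes. A call needed a log2 difference of at least 0.58 in size and an adjusted p up to 0.05. The fit was tested on simulated data. Members and lists were chosen with earlier results of these data known. Named were all members and, of each list (in full for the acinar ones), the 4 genes of highest mean signal, the 2 of largest difference in each direction and the 5 genes nearest in pattern; other genes were chosen after their values were seen. Motifs were searched in RefSeq promoter windows. Alternatives were other scalings, averaged clusters, brighter genes only, an intensity trend, the methods' t-test, other limits of background and leaving out each line.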

Additional observations from a re-analysis of the deposited data

How the results depend on the processing

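Under the alternatives to the comparison of TPAC with TPC cells that kept all 4 lines, limma and the methods' t-test called 0 genes. These gave 15 (the methods' t-test) to 97 (limma, common median per array) genes at an unadjusted p under 0.05 and a log2 difference of at least 0.58. The main limma fit gave 84 by this rule, and 156 without the threshold on the difference. The members' median difference kept its sign, between -0.43 and -0.20 with 1 line left out. Of 75 values of single members, 73 kept their direction and none was called. Ctrl turned to 0.12 without TPC replicate 1 (TPC18645) and Rbpjl to 0.02 without TPAC replicate 1 (K459), and the cause was not tested; with 1 line left out Ctrl ranged from -0.35 to 0.12 and Rbpjl from -0.15 to 0.02. With 1 line left out, the lone line of a genotype is assumed to vary like the others. The counts of members above background moved with the limit and with no scaling tried. Above the 99th percentile of receptor genes were 1 member in K459 and 1 in TCPA18654, against 4 in TPC18645 and 2 in TPC20223. Above the 95th percentile of genes of other tissues were 0, 0, 0 and 1 in the same order, and without 5 liver genes, an alternative chosen after seeing the data, 0, 0, 2 and 1. Signals this near to background limit the size of every enzyme difference. TCPA18654 minus TPC18645 alone, also chosen after seeing the data, gave a median of -0.40. No paired analysis was possible because each line has 1 array and its replicate number is only an order of accession.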

Other observations

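Beside the acinar genes, the 62 genes in which TPC18645 exceeded every other line by 0.58 or more held many genes that interferon is known to induce. Irf7, a factor of the interferon response, had log2 signals of 7.84 in K459 and 8.46 in TCPA18654, against 9.46 in TPC18645 and 6.94 in TPC20223. Mx2, an antiviral GTPase gene, had 5.55 in K459 and 6.25 in TCPA18654, against 7.23 in TPC18645 and 4.69 in TPC20223. Usp18, Ifit1, Ifit3, Oasl2, Bst2, Rtp4 and Xaf1 were also among the 62, and Oas2 was among the 5 genes nearest in pattern to the enzymes. In Irf7 and Mx2 TPC20223 was the lowest line, which it was in Ctrl alone among the members. These genes were picked after their values were seen, and no test was run.

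Genes of digestive or mucous secretion were on the same list. Amy1, the gene of an amylase made by salivary gland and other tissues, had 5.03 in K459 and 5.07 in TCPA18654, against 6.05 in TPC18645 and 5.37 in TPC20223, all below the limit of background. Muc5ac, a gastric mucin gene, had 7.87 in K459 and 9.22 in TCPA18654, against 10.08 in TPC18645 and 5.90 in TPC20223.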
